A study of Homo sapiens with 6 samples.

Results

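Of 35 genes of the type I interferon response chosen by name, 34 were measured and are described here, among 19775 genes on the arrays; STAT2 was not analysed here. Each gene is represented by the probe set with the highest mean over all 6 arrays, among probe sets whose annotation names that gene alone. The genes were listed by name, with earlier results of these data known. The cells were ARPE-19, an established human line derived from retinal pigment epithelium, kept in DMEM/Ham's F-12 medium with 10% serum. In 1 group, 3 arrays hold RNA of solvent controls (0.1% DMSO). In the other, 3 arrays hold RNA of cells exposed to 10 µM SRPIN803. Both exposures lasted 4 h, and the labels name no interferon, no infection and no other agent in either group. SRPIN803 blocks the kinase SRPK1, which phosphorylates SR proteins that act in splicing, and also CK2, a broadly acting kinase. The question is whether transcripts of the interferon response differed between compound and solvent in cells that were not stimulated.

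Type I interferons bind a receptor at the cell surface whose kinases, JAK1 and TYK2, activate STAT proteins. A STAT complex with IRF9 then enters the nucleus and binds the interferon-stimulated response element (ISRE), a repeat of GAAA, in the promoters of many genes, many of which block steps of a viral life cycle. Epithelial cells keep part of this set transcribed at a low level without added interferon, and retinal pigment epithelium can make interferon and respond to it.

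All values are log2 levels, where a difference of 1 is a doubling, and arrays give no read depth, so the number of arrays limits the precision. Array medians lay between 5.25 and 5.28. Arrays of the same group correlated at 0.9957 to 0.9977 over probe sets, and arrays of different groups at 0.9940 to 0.9961. SRPIN803 replicate 2 had the lowest mean correlation with the other arrays, at 0.9950. Of 14 pigment epithelium markers, 10 lay at or above the median probe set level of 5.26, among them OTX2, MITF and the keratins KRT8 and KRT18, while RPE65, LRAT, TYRP1 and MERTK lay below it. MITF was the 1 of the 14 that passed the test, by 0.35 ± 0.07 (SE, limma's adjusted p = 0.0312). An unadjusted p under 0.05 in limma was reached by 3 of the 14, beside 19.5% of all genes. Of 8 fibroblast or mesenchymal markers, 5 also lay at or above the median level, among them VIM and COL1A1. COL1A2, COL3A1 and LUM lay below it. In limma 0 of these 8 passed, and 0 had an unadjusted p under 0.05. The 10 measured leukocyte and plasmacytoid dendritic cell markers had mean levels of 2.82 to 5.59 and 0 of them passed the test (0 also at an unadjusted p under 0.05 in limma). In bulk RNA, fewer cells that transcribe a gene and less RNA per cell cannot be told apart.

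After 4 h of SRPIN803, 5 of the 34 genes passed the test, and they went both ways. IFIT1, SAMD9 and IFI44 rose and IFIT3 and IRF1 fell, by folds between 1.24 and 1.42. The share called was 14.7%, where limma called 5.84% of all 19775 genes (3.46% higher, 2.37% lower) at an adjusted p under 0.05. All 5 lay at or above the median level, where 22 of the 34 members lay, and of genes at that level 8.30% were called. The median log2 change of the 34 genes was 0.03, beside 0.02 over all genes, and single changes ran from -0.50 for IFIT3 to 0.62 for IFI44L. The groups did not overlap in 12 of the 34 genes, 7 higher and 5 lower in SRPIN803, beside 25.6% of all genes (15.2% higher, 10.4% lower). An unadjusted p under 0.05 was reached by 12 members, beside 19.5% of all genes. Changes were positive in 21 members and negative in 13. The calls depended on single arrays: leaving out a DMSO array (replicates 1 to 3 in turn) left 1, 2 and 0 called members, and leaving out an SRPIN803 array left 4, 4 and 2. In the fit with 0 called, that without DMSO replicate 3, 11 members had an unadjusted p under 0.05 in limma.

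**Figure D1:**
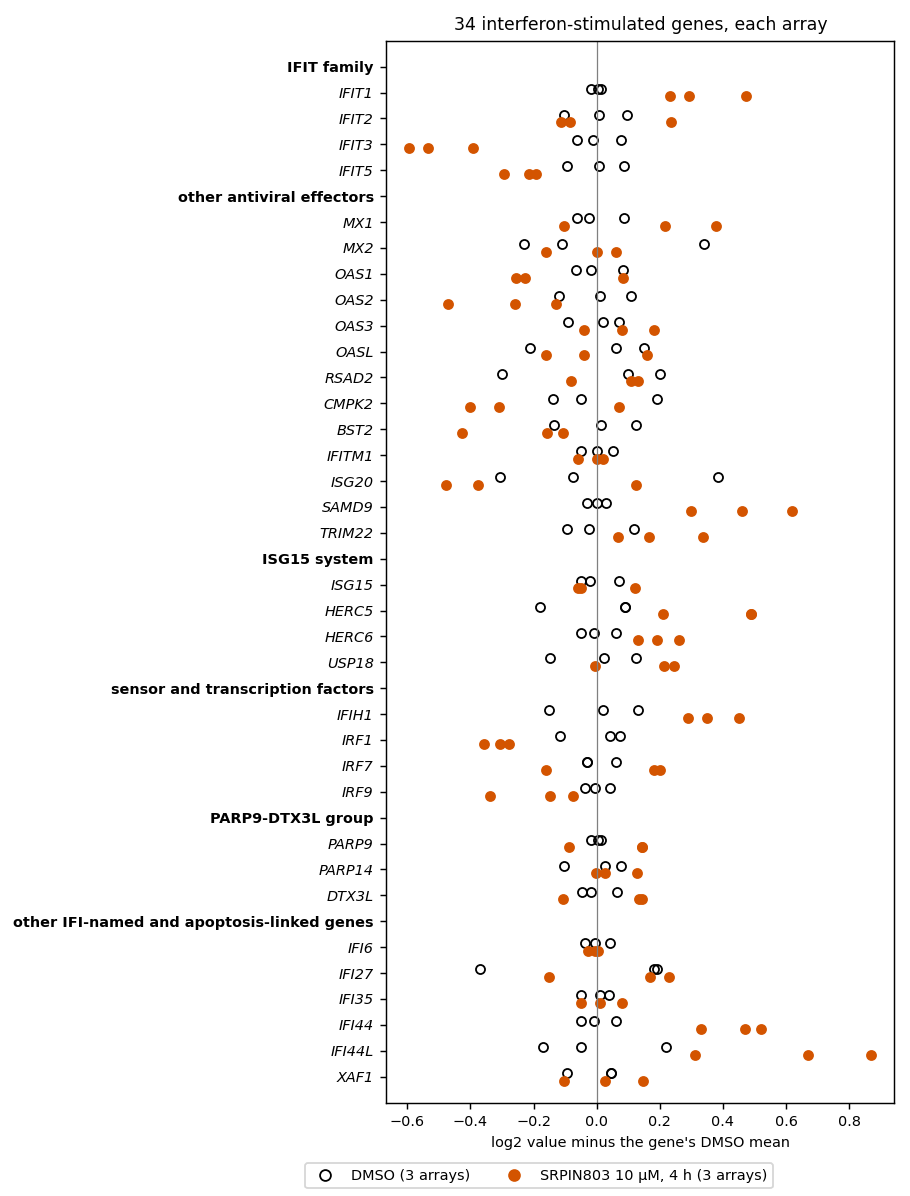
Log2 value of each array minus the gene's DMSO mean (horizontal axis), for the 34 genes grouped by role (vertical axis); open circles are the 3 DMSO arrays and filled circles the 3 SRPIN803 arrays. IFIT1, SAMD9 and IFI44 lie to the right of all DMSO arrays and IFIT3 and IRF1 to the left, while most other genes overlap.

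Promoter sequences were taken from RefSeq on GRCh38.p14, and 27 of the 34 genes had at least 1 window of 250 bases before to 50 bases after a start site. The ISRE was searched as GAAANNGAAA on both strands, so that it also reads TTTCNNTTTC, and matches may overlap. It was found in 24 of the 37 windows of members (64.9%) and in 3.57% of all 35116 windows. Counted by gene, 20 of 27 members held it, against 4.38% of all genes with a window. Among the called members it was in 4 of 5 and among the others in 16 of 22, so most genes of either kind held it. The gamma-activated site, the STAT dimer element, was searched as TTCNNNGAA and was in 27.0% of member windows and 7.66% of all windows. Stretches of 180 bases that end 15 bases past the start site, from the first window listed for each gene, are printed for the called genes and for IFIT5, which stands beside IFIT1, because IFIT3, which fell, carries the same element as the genes that rose. Capitals mark ISRE matches, or in IRF1 the gamma-activated site.
IFIT1 (GRCh38.p14, chr10:89392458-89392637, plus strand): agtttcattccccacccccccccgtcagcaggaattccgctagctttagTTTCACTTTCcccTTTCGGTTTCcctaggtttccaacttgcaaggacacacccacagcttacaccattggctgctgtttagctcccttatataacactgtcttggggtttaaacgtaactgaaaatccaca
IFIT3 (GRCh38.p14, chr10:89327832-89328011, plus strand): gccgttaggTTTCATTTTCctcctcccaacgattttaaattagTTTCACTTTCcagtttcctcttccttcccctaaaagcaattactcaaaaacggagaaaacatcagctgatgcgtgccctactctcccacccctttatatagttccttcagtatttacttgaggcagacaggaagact
IFIT5 (GRCh38.p14, chr10:89414403-89414582, plus strand): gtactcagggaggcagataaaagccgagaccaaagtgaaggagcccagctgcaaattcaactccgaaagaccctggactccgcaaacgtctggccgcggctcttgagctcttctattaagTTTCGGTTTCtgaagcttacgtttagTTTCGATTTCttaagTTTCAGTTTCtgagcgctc
IFI44 (GRCh38.p14, chr1:78649624-78649803, plus strand): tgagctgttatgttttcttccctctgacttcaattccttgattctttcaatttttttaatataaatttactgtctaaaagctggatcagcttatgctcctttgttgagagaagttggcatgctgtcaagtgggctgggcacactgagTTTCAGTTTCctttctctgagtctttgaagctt
SAMD9 (GRCh38.p14, chr7:93117965-93118144, minus strand): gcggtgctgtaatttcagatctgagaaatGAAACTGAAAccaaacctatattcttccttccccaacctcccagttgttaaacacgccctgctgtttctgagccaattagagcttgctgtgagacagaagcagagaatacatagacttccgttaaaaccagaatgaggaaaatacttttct
IRF1 (GRCh38.p14, chr5:132490759-132490938, minus strand): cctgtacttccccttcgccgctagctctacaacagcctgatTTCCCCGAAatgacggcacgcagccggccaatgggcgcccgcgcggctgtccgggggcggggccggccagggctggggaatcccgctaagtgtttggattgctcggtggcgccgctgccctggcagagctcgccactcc
IFIT1 had 2 matches, the first of them 116 bases before its start, and IFIT3 had 2, the first of them 156 bases before. IFIT5 had 3 matches, IFI44 and SAMD9 had 1 each, and IRF1 had 0. IRF1 is known to be driven by STAT dimers and by NF-kappaB, and its stretch holds the gamma-activated site 124 bases before the start. A match is a string of letters in the reference, and binding was not measured.

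Among the genes that sense RNA or turn the response on, IRF1 fell and the RNA sensor gene IFIH1 had higher values that missed the threshold. IRF1 encodes a transcription factor of interferon and inflammatory genes. It measured 7.37, 7.21 and 7.40 in DMSO and 7.02, 6.97 and 7.05 in SRPIN803. No DMSO array was as low as any SRPIN803 array, with a change of -0.31 ± 0.07 and limma's adjusted p = 0.0437, a fall of 1.24-fold (95% interval 1.11 to 1.39). This call was lost with any 1 array left out (adjusted p 0.0505 to 0.164), while the change stayed between -0.37 and -0.28.

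IFIH1, which encodes MDA5, a helicase that senses long double-stranded RNA, measured 6.86, 7.03 and 7.14 in DMSO and 7.30, 7.36 and 7.46 in SRPIN803. The groups did not overlap, and the change was 0.36 ± 0.09 with limma's adjusted p = 0.0526. Its 2 other probe sets, at mean levels of 3.97 and 3.47, were at 0.01 and 0.05. IRF9, the DNA-binding partner of the STATs, measured 9.06, 9.14 and 9.09 in DMSO and 8.76, 9.02 and 8.95 in SRPIN803. The SRPIN803 arrays lay lower without overlap, replicate 1 lowest, and the change of -0.18 ± 0.08 was not called (limma's adjusted p = 0.256). IRF7, which drives the second wave of interferon genes, was at 0.07 ± 0.10, with overlapping groups.

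The IFIT family held a rise and a fall within its cluster on chromosome 10. IFIT1B, which was not measured here, lies between IFIT3 and IFIT1. Proteins of the family bind viral RNA, IFIT1 by recognising caps without 2'-O-methylation, and IFIT3 stabilises IFIT1 and strengthens its hold on RNA. IFIT1 measured 8.48, 8.47 and 8.45 in DMSO and 8.70, 8.76 and 8.94 in SRPIN803. All 3 SRPIN803 arrays were higher, replicate 3 most, giving 8.47 ± 0.01 against 8.80 ± 0.12 (SD, n = 3 each), a 1.26-fold rise (1.12 to 1.42; limma's adjusted p = 0.0418). IFIT1 lost its call with any 1 array left out except SRPIN803 replicate 1, with adjusted p up to 0.148 and changes of 0.27 to 0.38. It also lost it with each array centred on its median (adjusted p = 0.0541). IFIT1 had 1 probe set, so no other one bears on its rise.

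IFIT3 measured 9.50, 9.64 and 9.55 in DMSO and 9.03, 8.97 and 9.17 in SRPIN803. All 3 SRPIN803 arrays were lower, from 9.56 ± 0.07 to 9.06 ± 0.10 (SD, n = 3 each), a 1.42-fold fall (1.26 to 1.60) with limma's adjusted p = 0.0106. A second IFIT3 probe set measured 8.22, 8.16 and 8.18 in DMSO and 7.77, 7.95 and 7.76 in SRPIN803. It was also lower without overlap, by -0.36 ± 0.08, and was called over all 41091 probe sets (adjusted p = 0.0491). IFIT3 was called in all fits with 1 array left out but that without DMSO replicate 3 (adjusted p = 0.0525), with changes of -0.56 to -0.46.

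IFIT5, which binds RNA with a 5' triphosphate, measured 9.79, 9.97 and 9.89 in DMSO and 9.59, 9.67 and 9.69 in SRPIN803. The arrays of SRPIN803 lay lower without overlap, at -0.23 ± 0.07, and the change was not called (limma's adjusted p = 0.103). Its second probe set was at -0.20 ± 0.08. IFIT2, linked to cell death, was at 0.02 ± 0.10 with overlapping groups, so the 4 measured genes gave 1 rise, 1 fall and 2 changes that did not pass.

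IFIT1 and IFIT3 were set against each other array by array, a comparison chosen after their values were seen. The change of IFIT1 exceeded that of IFIT3 by 0.84. Relative to the DMSO mean, the difference between the genes was 0.77 to 0.89 in the SRPIN803 arrays and -0.07 to 0.07 in the DMSO arrays. An exact two-sided permutation test gave p = 0.1, the smallest that 3 against 3 arrays allow, or 0.15 adjusted over the 3 gene pairs tested. With IFIT1 higher and IFIT3 lower in every SRPIN803 array, no other p was possible, so the test adds no support.

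SAMD9 was the 1 gene called among the 13 other antiviral effectors (7.69%, beside 5.84% of all genes). It encodes a cytoplasmic protein that restricts poxviruses and slows growth and translation. SAMD9 measured 5.66, 5.69 and 5.72 in DMSO and 5.99, 6.31 and 6.15 in SRPIN803. All SRPIN803 arrays were higher, replicate 2 most, a 1.38-fold rise (1.20 to 1.58; limma's adjusted p = 0.0254). Its second probe set, at a mean level of 4.72, was at 0.21 ± 0.11 with overlapping groups, and with the mean of both SAMD9 was at 0.34 and not called (adjusted p = 0.0529). The call was also lost without any 1 DMSO replicate or SRPIN803 replicate 3 (adjusted p up to 0.0898).

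The paralogue SAMD9L, next to SAMD9 on chromosome 7, was at 0.0040 ± 0.089 (limma's adjusted p = 0.987). Its 2 dimmer probe sets pointed in opposite directions, at 0.26 ± 0.13 with overlapping groups and at -0.33 ± 0.11 without overlap, neither called. With the brightest probe set of each gene, the change of SAMD9 exceeded that of SAMD9L by 0.46, with the SRPIN803 arrays at 0.32 to 0.57 and the DMSO arrays at -0.06 to 0.04 around their mean. The exact permutation p was again 0.1, the smallest possible, or 0.15 adjusted over the 3 pairs, and no conclusion is drawn from it.

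The MX genes, RSAD2 and CMPK2 were not called. MX1 and MX2, dynamin-like GTPases that trap viral particles, were at 0.16 ± 0.12 and -0.03 ± 0.14. MX1 measured 5.31, 5.42 and 5.27 in DMSO and 5.23, 5.55 and 5.71 in SRPIN803, so the groups overlapped. RSAD2, which makes a chain-terminating nucleotide, and its neighbour CMPK2 were at 0.05 ± 0.13 and -0.21 ± 0.14.

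The 2'-5'-oligoadenylate synthetases make the second messenger that activates RNase L. OAS2 measured 4.21, 4.44 and 4.34 in DMSO and 4.20, 3.86 and 4.07 in SRPIN803. The groups were apart by 0.01, and the change of -0.28 ± 0.10 was not called (limma's adjusted p = 0.178), while its 2 other probe sets were at 0.09 and -0.0017. OAS1, OAS3 and OASL were at -0.13 ± 0.10, 0.07 ± 0.08 and -0.01 ± 0.12. The OAS genes other than OAS3, like MX2, RSAD2, CMPK2, BST2 and IFITM1, lay below the median level.

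BST2, the tether that holds budding virions, was at -0.23 ± 0.10, the membrane protein gene IFITM1 at -0.02 ± 0.06 and the exonuclease gene ISG20 at -0.25 ± 0.21. A second ISG20 probe set was lower without overlap, at -0.42 ± 0.11, and not called over all probe sets (adjusted p = 0.0964). TRIM22, a ubiquitin ligase that restricts retroviruses, measured 11.35, 11.56 and 11.42 in DMSO and 11.51, 11.61 and 11.78 in SRPIN803. Its groups overlapped and the change was 0.19 ± 0.09 (limma's adjusted p = 0.296).

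ISG15 is a ubiquitin-like protein, HERC5 the ligase that attaches it, and USP18 the protease that removes it and dampens the receptor. Of the 4 genes of this group 0 were called by limma, and 2 had an unadjusted p under 0.05. ISG15 itself measured 8.59, 8.50 and 8.47 in DMSO and 8.46, 8.64 and 8.47 in SRPIN803. Its change was 0.0019 ± 0.072, with a 95% interval of -0.17 to 0.17, and the groups overlapped.

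HERC5 measured 6.07, 5.80 and 6.07 in DMSO and 6.47, 6.47 and 6.19 in SRPIN803. The groups did not overlap, and the change of 0.40 ± 0.11 missed the threshold (limma's adjusted p = 0.0776). HERC6, its neighbour and paralogue on chromosome 4, measured 7.07, 7.11 and 7.18 in DMSO and 7.25, 7.38 and 7.31 in SRPIN803. It too was higher without overlap, at 0.20 ± 0.06, and not called (limma's adjusted p = 0.138). USP18 was at 0.15 ± 0.10 with overlapping groups.

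PARP9, DTX3L and PARP14 encode ADP-ribosyltransferases and a ubiquitin ligase that work on STAT signalling and DNA damage. The 3 genes changed by 0.05 to 0.07, 0 of them called and 0 with an unadjusted p under 0.05 in limma. DTX3L measured 9.06, 9.03 and 9.14 in DMSO and 8.97, 9.22 and 9.21 in SRPIN803, with overlapping groups. The 95% intervals of all 3 lay between -0.13 and 0.25.

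IFI44 rose and its neighbour IFI44L had the largest change of all members without passing the test. Both encode GTPase-like proteins with antiviral and growth-limiting activity. IFI44 measured 6.65, 6.72 and 6.61 in DMSO and 7.18, 7.13 and 6.99 in SRPIN803. All SRPIN803 arrays were higher, a 1.36-fold rise (1.21 to 1.52) with limma's adjusted p = 0.0145. Its second probe set measured 3.04, 3.11 and 3.09 in DMSO and 3.42, 3.62 and 3.69 in SRPIN803. It was higher without overlap, by 0.49 ± 0.08, and called over all probe sets (adjusted p = 0.0267). This probe set was dim, with a mean level of 3.33, below the 25th percentile of probe set levels, 3.69. IFI44 lost its call without DMSO replicate 1 or 3 (adjusted p up to 0.0735), with changes of 0.40 to 0.50.

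IFI44L measured 4.77, 4.50 and 4.38 in DMSO and 5.42, 4.86 and 5.22 in SRPIN803. The groups were apart, with SRPIN803 replicate 2 nearest to DMSO, and the change was 0.62 ± 0.15 with limma's adjusted p = 0.0622. Without that array it was 0.77 and called (adjusted p = 0.0297). The difference between the changes of IFI44 and IFI44L was -0.17, and an exact two-sided permutation test gave p = 0.4, also after adjustment over the 3 pairs.

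The other genes of this kind stayed close to 0. IFI6, a mitochondrial inhibitor of apoptosis, measured 8.50, 8.42 and 8.45 in DMSO and 8.46, 8.43 and 8.45 in SRPIN803. The groups overlapped, and its 95% interval was -0.14 to 0.12. IFI35 was at 0.01 ± 0.06, IFI27 at 0.09 ± 0.17 and the apoptosis factor gene XAF1 at 0.02 ± 0.08, the last at a mean level of 3.40.

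**Figure D2:**
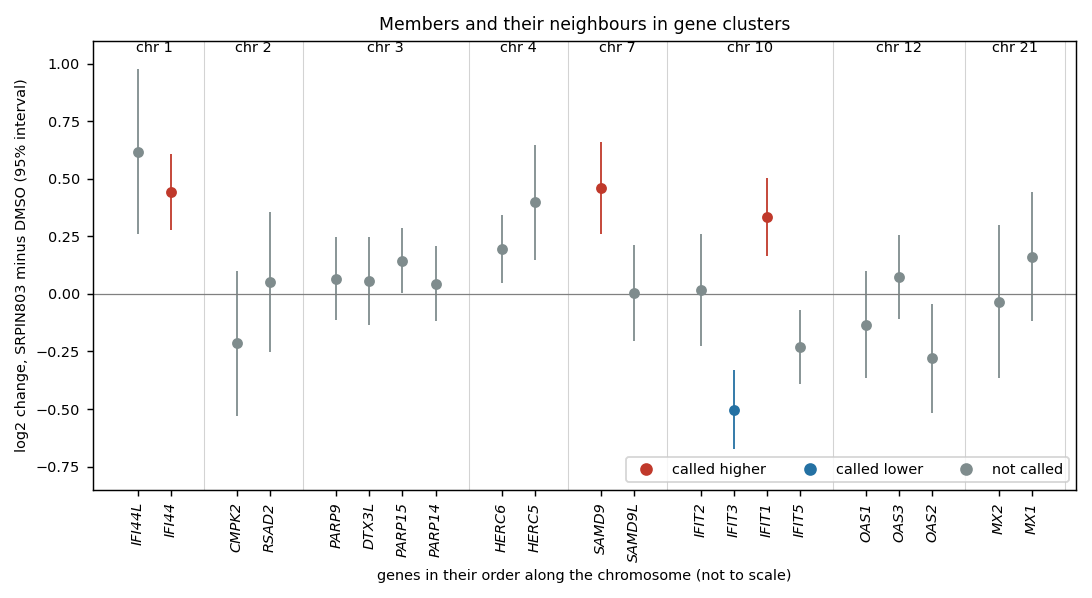
Log2 change of SRPIN803 minus DMSO (vertical axis, points) with 95% intervals (bars) for members and the measured genes between or beside them, in their order along each chromosome (horizontal axis, not to scale), with called genes in red (higher) or blue (lower). IFIT3 at -0.50 and IFIT1 at 0.33 lie on opposite sides of 0 within the cluster on chromosome 10, and SAMD9 at 0.46 lies apart from SAMD9L near 0.

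Of the clusters that hold at least a pair of listed genes, those on chromosomes 1, 7 and 10 held called genes. Those of the MX genes, the OAS genes, PARP9 to PARP14, HERC5 and HERC6, and CMPK2 and RSAD2 held 0 called members. With the brightest probe sets, HERC5, HERC6, IFI44 and IFI44L were all higher in SRPIN803 without overlap. Of these only IFI44 was called, and the groups overlapped in the second HERC6 probe set. The IFIT cluster had IFIT1 above and IFIT3 and IFIT5 below, IFIT5 uncalled. Of all genes, 15.2% were higher and 10.4% lower without overlap.

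**Figure D3:**
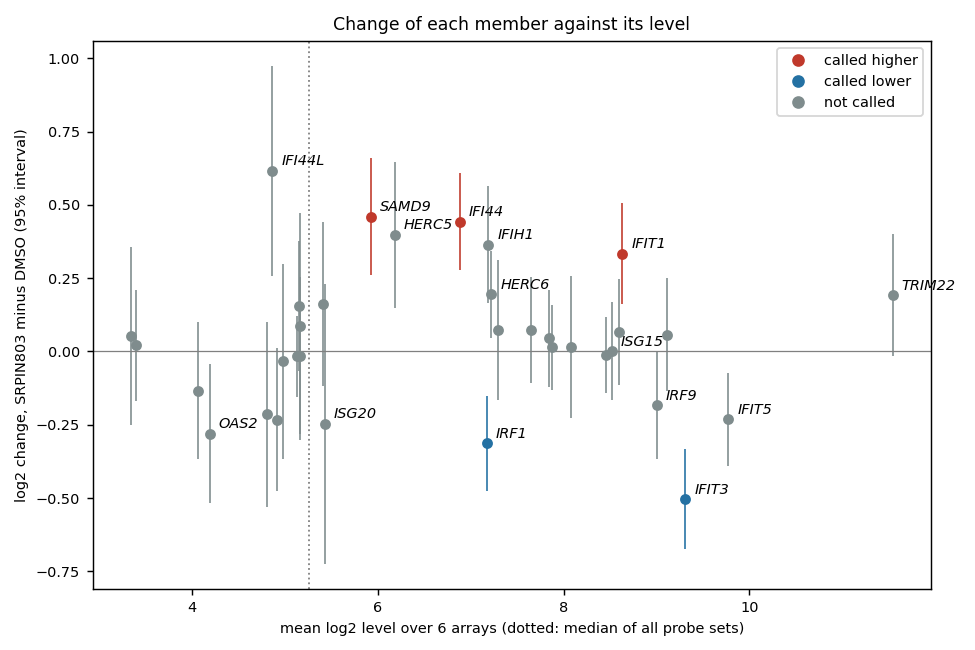
Log2 change of SRPIN803 minus DMSO (vertical axis, points) with 95% intervals (bars) against the mean log2 level over all arrays (horizontal axis) for the 34 genes, with the median level of all probe sets dotted. The 5 called genes lie to the right of the dotted line, and ISG20 and IFI44L have the lowest and the highest interval bounds of the uncalled genes.

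For the 29 genes that were not called, the intervals say how large a change the arrays leave possible. In 23 of them the 95% interval lay within -0.5 to 0.5. The other 6 had wider or shifted intervals, the lowest bound being -0.72 for ISG20 and the highest 0.98 for IFI44L. Of the 12 members below the median level 0 were called by limma, and 2, OAS2 and IFI44L, had an unadjusted p under 0.05.

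**Figure D4:**
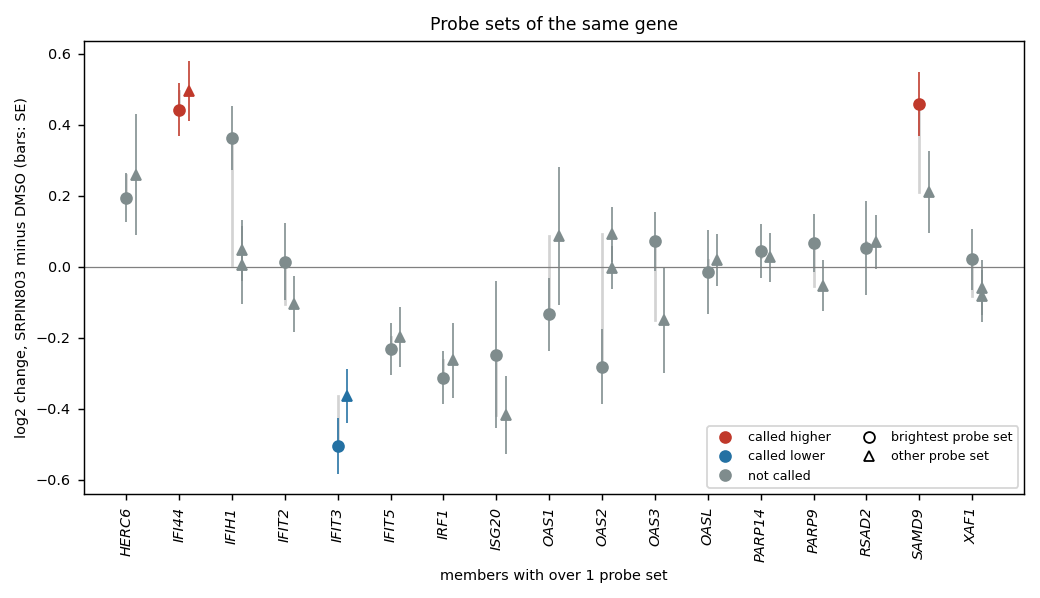
Log2 change of SRPIN803 minus DMSO (vertical axis) with its standard error (bars) for each probe set of the 17 members with over 1 (horizontal axis); circles are the brightest probe set and triangles the others, red called higher, blue called lower and grey not called. Both probe sets of IFI44 and of IFIT3 were called, whereas the dimmer ones of IFIH1 lie near 0.

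The 34 genes had 54 probe sets, and 17 genes had over 1. Tested over all probe sets, 5 of the 54 were called (9.26%, beside 3.04% of all 41091 probe sets): both of IFI44 and 1 of SAMD9 higher, and both of IFIT3 lower. The probe set of IFIT1 and the brighter one of IRF1 were not called in this larger family (limma's adjusted p = 0.0700 and 0.0755). The dimmer IRF1 probe set was at -0.26 ± 0.11 with overlapping groups, and was not called either (adjusted p = 0.264). In 10 of the 17 genes every probe set changed in the same direction, IRF1, IFIT5 and HERC6 among them. In the other 7, IFIT2, OAS1, OAS2, OAS3, OASL, PARP9 and XAF1, the signs differed. Without any 1 DMSO replicate 0 of the 54 were called by limma (13 to 17 had an unadjusted p under 0.05), and without any 1 SRPIN803 replicate 2 or 3 were.

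Of 99 other genes of the interferon system 5 were called (5.05%), 4 higher and 1 lower, beside 5.84% of all genes. All 5 lay at or above the median level, where 84 of the 99 lay, and of genes at that level 8.30% were called. Groups did not overlap in 30 of the 99, 15 higher and 15 lower in SRPIN803, beside 25.6% of all genes (15.2% higher, 10.4% lower). Of 9 interferon genes 0 were called, with 0 at an unadjusted p under 0.05 in limma. IFNB1, the first interferon that infected epithelium makes, measured 3.40, 3.44 and 3.37 in DMSO and 3.41, 3.16 and 3.23 in SRPIN803, and the change was not called (limma's adjusted p = 0.381). IFNA1 measured 2.52, 2.21 and 2.37 in DMSO and 2.62, 2.53 and 2.46 in SRPIN803, a change of 0.17 ± 0.09. Both genes lay below the 25th percentile of probe set levels, 3.69, and their groups overlapped. Of 6 receptor genes 0 were called by limma (1 at an unadjusted p under 0.05), and the smallest p was that of IFNAR1, a chain of the type I receptor. IFNAR1 measured 8.11, 8.10 and 8.13 in DMSO and 8.20, 8.31 and 8.37 in SRPIN803. The SRPIN803 arrays were higher without overlap, by 0.18 ± 0.06 (limma's adjusted p = 0.165). Of 4 genes of the JAK-STAT relay 0 were called (0 at an unadjusted p under 0.05), among them the receptor kinase gene TYK2. It measured 7.89, 7.95 and 7.97 in DMSO and 8.06, 8.05 and 8.08 in SRPIN803. Its groups did not overlap, and the change was 0.13 ± 0.06 (limma's adjusted p = 0.267).

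Among 11 negative regulators SOCS2 was the 1 called (9.09%, beside 5.84% of all genes), and it fell. It belongs to the SOCS proteins, which end cytokine receptor signals, and is best known for limiting growth hormone signalling. SOCS2 measured 8.48, 8.67 and 8.59 in DMSO and 7.95, 7.93 and 8.05 in SRPIN803. All SRPIN803 arrays were lower, by -0.60 ± 0.07 (limma's adjusted p = 0.00521), and a second probe set was lower by -0.76 ± 0.12. A further, dim SOCS2 probe set was at -0.04 ± 0.09 with overlapping groups.

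Among 15 genes of nucleic acid sensing TLR3 was the 1 called (6.67%, beside 5.84% of all genes), and it rose. Changes were negative in 11 of the 15 and positive in 4, with a median of -0.11. The groups did not overlap in 5, 2 higher and 3 lower in SRPIN803, beside 25.6% of all genes (15.2% higher, 10.4% lower). TLR3 is the endosomal receptor of double-stranded RNA, which retinal pigment epithelium is known to carry. TLR3 measured 6.05, 6.17 and 6.02 in DMSO and 6.66, 6.72 and 6.60 in SRPIN803. All SRPIN803 arrays were higher, by 0.58 ± 0.07 with limma's adjusted p = 0.00503. A second TLR3 probe set was higher by 0.32 ± 0.07 and called over all probe sets (adjusted p = 0.0472), and a dim one was at 0.23 ± 0.19. Leaving out single arrays ended neither the TLR3 nor the SOCS2 call, and TLR3 lost its call only with the mean of all probe sets among the alternatives run (0.38, adjusted p = 0.0505).

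Of 39 other interferon-stimulated effector genes 3 rose and 0 fell (7.69% called, beside 5.84% of all genes). These 3 lay at or above the median level, as did 36 of the 39, and of genes at that level 8.30% were called. The groups did not overlap in 17 of the 39, 9 higher and 8 lower in SRPIN803, beside 25.6% of all genes (15.2% higher, 10.4% lower). GBP1, a GTPase that coats bacteria and parasite vacuoles, measured 9.42, 9.75 and 9.57 in DMSO and 10.15, 10.39 and 10.66 in SRPIN803. All SRPIN803 arrays were higher, a 1.76-fold rise with limma's adjusted p = 0.0174, and its 3 other probe sets were at 0.60, 0.58 and 0.19. GBP1 belongs to a family of close paralogues, so its probes may read more than 1 of them; GBP2 and GBP3 were at 0.03 and -0.12. RTP4, a chaperone of membrane receptors, measured 5.25, 5.31 and 5.35 in DMSO and 5.77, 5.84 and 5.75 in SRPIN803. All SRPIN803 arrays of RTP4 were higher, and it rose by 0.49 ± 0.06 and kept its call whichever array was left out. TRIM38, a ubiquitin ligase that restrains sensor signalling, measured 8.66, 8.65 and 8.63 in DMSO and 9.16, 8.99 and 9.27 in SRPIN803. The groups were apart, and TRIM38 rose by 0.50 ± 0.08 but lost its call without any 1 DMSO replicate (adjusted p up to 0.0698). Its 3 other probe sets were at 0.23, 0.36 and 0.22, not called over all probe sets. GBP1 was not called without SRPIN803 replicate 2, nor without the first or the third DMSO array (adjusted p up to 0.0748).

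Of 15 antigen presentation genes, which interferons also raise, 0 were called, with 0 at an unadjusted p under 0.05 in limma. Their changes ran from -0.16 for HLA-E to 0.12 for PSMB9. HLA-E measured 10.82, 10.84 and 10.85 in DMSO and 10.66, 10.55 and 10.81 in SRPIN803, lower without overlap and not called (limma's adjusted p = 0.299). Without _x_at and _s_at probe sets, which can read related genes, HLA-E was at 0.049 instead. The median change over the 99 genes of the 7 lists was 0.01. SLFN5, a member of this set named after its values were seen, measured 9.56, 9.67 and 9.60 in DMSO and 9.32, 7.88 and 9.25 in SRPIN803. SRPIN803 replicate 2 lay far below the other 5 arrays, and the change of -0.79 ± 0.34 was not called (limma's adjusted p = 0.261).

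**Figure D5:**
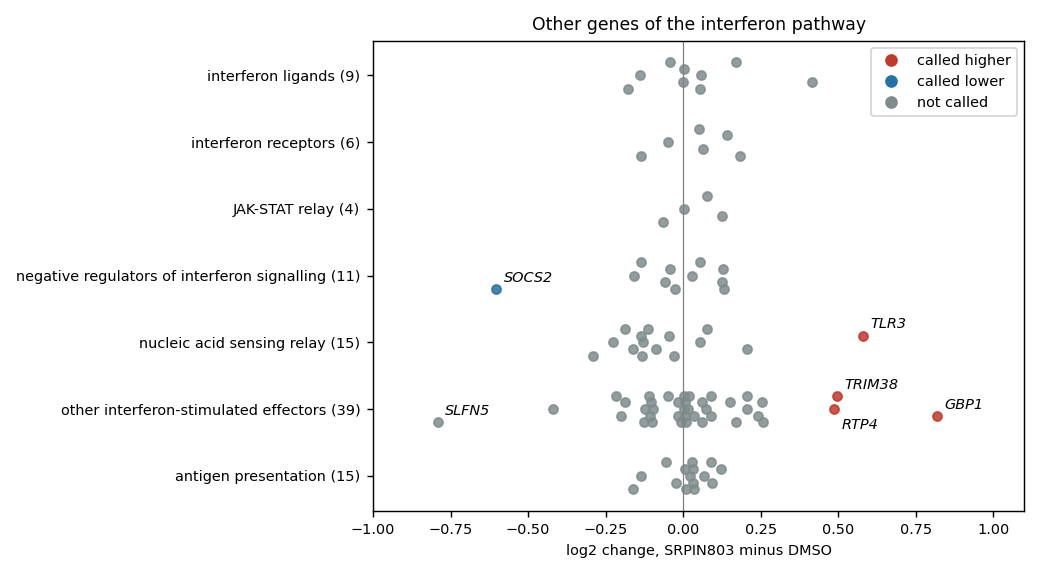
Log2 change of SRPIN803 minus DMSO (horizontal axis) for the 99 other genes of the interferon pathway, 1 point per gene, by list with the number of genes measured in brackets (vertical axis; the height within a list has no meaning). TLR3, TRIM38, RTP4 and GBP1 were called higher and SOCS2 lower, and ligands, receptors, the JAK-STAT relay and antigen presentation held 0 called genes.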

How the data were processed

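RNA of 6 ARPE-19 samples, 3 per group, was measured on Affymetrix 3' arrays from 100 ng of total RNA. Nothing in the labels says that replicates came from separate cultures; the p-values then reflect only how these samples scatter, and that scatter may be technical. The deposited log2 values, 1 per probe set and array, were made by the authors with RMA, per the submitters' processing notes; the program that ran it is not given in the sources used here. RMA corrects background, normalizes between arrays and summarises probes, which hides a change in total RNA and compresses changes of dim probe sets. It gives no detection call.

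The values were used as deposited. Of 54675 probe sets, 62 were controls, 41091 carried a single gene name, 1801 carried several names and 11721 have no name here. Names come from the platform annotation, updated through gene IDs (41037 matched). The 19775 genes were tested with limma 3.58.1 in R 4.3.3 (lmFit, then eBayes) in a model of group alone with 4 residual degrees of freedom. Tests were two-sided, p-values were adjusted across the genes after Benjamini and Hochberg, and calls were made at an adjusted p under 0.05. Errors beside changes are standard errors. Plots used matplotlib 3.10.9 in Python 3.11.15.

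The members and lists were chosen with earlier results of these data known. Named with full values by rule were called members, the 6 uncalled members with the smallest p, the 3 uncalled ones with the highest level, IRF9, IFNB1 and, per pathway list, called genes or else that with the smallest p. Further members (MX1, ISG15, IFI6) and PSMB9, SAMD9L, GBP2 and GBP3 are shown outside this rule. Of the list genes, those without a probe set of their own here were not analysed. Promoter sequences are from RefSeq (GRCh38.p14); printed coordinates are theirs, not the arrays'. Alternatives were a replicate block, each array left out, filters, probe set choice, normalization, variance model, array weights and the threshold.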

Additional observations from a re-analysis of the deposited data

How the results depend on the processing

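Under the alternatives that kept all 34 genes, their median change was 0.0049 to 0.05 and 22 to 27 of them had intervals within -0.5 to 0.5, in place of 24, while counts of calls moved more. The 3 higher members became 5 among genes at or above the median level, 5 at or above the 25th percentile level, and 6 with the trended robust variance or at an adjusted p under 0.1. They became 4 with the replicate block or array weights, and 2 with the mean of all probe sets or with array medians centred. The 2 lower members became 3 at or above the median level and 3 with the trended robust variance. They became 1 with the mean of all probe sets and 1 without _x_at and _s_at probe sets, where 6 members had no probe set. With 1 array left out, 0 to 3 members were higher and 0 to 1 lower, and 324 to 687 of all genes were called in place of 1154. Over all genes 1904 were called at or above the median level, 1991 at an adjusted p under 0.1 and 2036 with the trended robust variance. The share of tested genes called was 15.1% at or above the median level and 8.69% at or above the 25th percentile level. It was 5.84% in the main fit, 6.07% after cyclic loess and 10.3% with the trended robust variance. With 1 array left out it was 1.64% to 3.47%. Beside these shares, the 5 pathway genes became 10 and 8 under the filters, where 84 of the 99 lay at or above the median level. They became 8 after cyclic loess, 13 with the trended robust variance and 3 to 5 with 1 array left out. The 5 member probe sets became 0 to 3 in the same fits. IFIH1 was called under both filters and the trended robust variance, IFIT5 and HERC5 at or above the median level and with that variance, and IFI44L at or above the 25th percentile level, with that variance and with array weights. IRF1 lost its call when probe sets were averaged (adjusted p = 0.0803) or without _x_at and _s_at probe sets (0.0528). HLA-E, among the named genes, changed sign, to 0.049 without _x_at and _s_at probe sets.

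The replicate numbers are shared by the groups in the labels. Deviations of same-numbered arrays correlated at 0.179, -0.061 and 0.107 across genes, and those of differently numbered arrays at -0.214 to 0.127. These values do not settle whether the numbers mark pairs, and the main fit did not take them as pairs. With the replicate block 689 genes were called in all, 1 member was lower and 0 member probe sets were called (17 at an unadjusted p under 0.05 in limma). IFIT1 and IRF1 were not called in that fit (adjusted p = 0.0804 and 0.0620) and IFIH1 and IFI44L were (0.0470 and 0.0475). The number of arrays limits precision.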
